A study of Oryza sativa with 21 samples.

Results

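The transcriptome described here is that of wild-type rice (Oryza sativa) grain of the genotype ZH11, collected 3 days after pollination from plants grown in paddies. It was chosen as the 3 grain libraries whose labels name ZH11 alone, out of 21 samples in the series. A further 6 grain libraries came from the DRW1 overexpression lines OE1 and OE2, with 3 each, and 12 seedling samples belong to an m5C immunoprecipitation experiment. None of these was compared here, and no transgene is labelled in the ZH11 libraries. Genes were ranked by their mean CPM, which is the gene's count after scaling each library to a total of 1000000 counts. Every comparison below is between genes of the same grain, so it has no second group and no test. With 3 libraries, an exact paired test of 2 genes could not go below p = 0.25.

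A rice grain at this age is a whole fruit. Its maternal layers, which develop from the ovary wall, the integuments and the nucellus, surround a young endosperm and a small embryo. Sucrose from the mother plant passes through the maternal layers before it reaches the endosperm, where starch and storage protein build up later in grain filling. The libraries were made from whole grains, so a low value can come from few cells of a type or from little RNA per cell, and these cannot be told apart. The sources do not say how many grains or plants went into a library, nor whether the 3 libraries are separate plants, so their spread may be technical.

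The 3 libraries held 38117144, 33797178 and 36893018 counts, and 26735, 26479 and 26742 of 39217 genes had at least 1 count. A gene was called on at 1 CPM or more in every library, off below 0.1 CPM in every library, and low in between. By this rule 20436 genes were on (52.1%), 6233 were low (15.9%) and 12548 were off (32%). No count was found in any library for 10826 genes (27.6%). A count of 0 allows up to 3 counts in a library, which is 0.0787, 0.0888 and 0.0813 CPM in libraries 1, 2 and 3. This floor covers counting error only, since reads without molecular identifiers are not independent molecules.

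The libraries differed little. Among 10447 genes with a mean of at least 20 CPM, the coefficient of variation (CV, the SD over the mean of the 3 libraries) had a median of 3.71% and a 90th percentile of 7.77%. The median CV was 13.6% for genes at 1 to 10 CPM, 4.92% at 10 to 100 CPM, 2.38% at 100 to 1000 CPM and 1.83% at 1000 CPM and above. The corresponding medians from counting error alone were 8.44%, 3.04%, 1.33% and 0.477%. Highly counted genes were thus measured more precisely, and their spread between libraries exceeded the counting error of the counts as deposited. The chi-square per gene between any pair of libraries was 3.99 to 4.34, and each was kept as a library of its own. Counting both mates of a read pair would raise this value, and its part was not tested.

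Counts were spread widely over genes. The gene of highest mean CPM took 0.585% ± 0.014 of the counts (SD, n = 3), the leading 10 took 2.89% ± 0.033, the leading 100 took 10.2% ± 0.074, and the leading 1000 took 36.0% ± 0.10. It took 1998 genes to reach 50% of the counts and 9735 to reach 90%. In all, 2397 genes had a mean of at least 100 CPM (6.11%), and 25 of them reached 1000 CPM. A CPM is not corrected for transcript length, so the rank orders genes by their share of reads and not by the number of molecules. Wherever genes are set side by side below, it is their reads that are compared, and a longer transcript yields more of them.

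**Figure D1:**
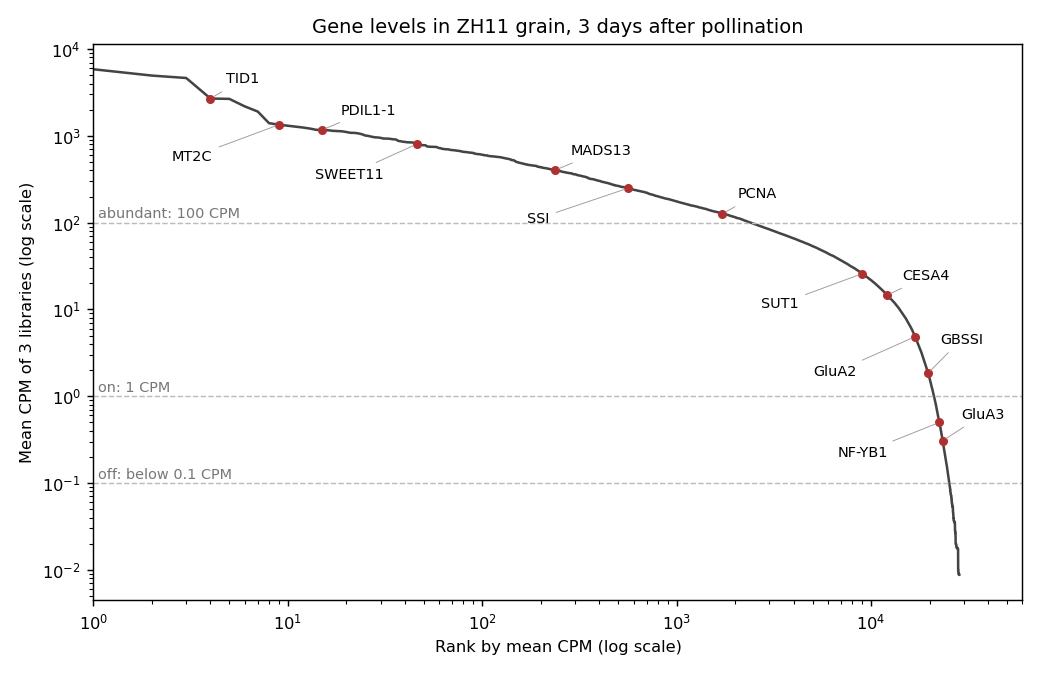
Mean CPM of the 3 ZH11 grain libraries (log scale) against rank (log scale) for all genes with a count, with 13 named genes as points and the limits for abundant, on and off genes as dashed lines. TID1 stood at rank 4, MADS13 at rank 237 and GBSSI at rank 19601, and the curve dropped steeply beyond about that rank.

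The top of the ranking was held by 3 loci that stood apart from the rest. LOC_Os07g39020 had 6006, 5825 and 5725 CPM, LOC_Os03g46770 had 4958, 4953 and 4936 CPM, and LOC_Os06g41030 had 4752, 4639 and 4532 CPM. The next locus down was TID1 (LOC_Os11g14220), an alpha-tubulin of the microtubules, with 2712, 2700 and 2661 CPM, and LOC_Os02g18690 followed with 2703, 2713 and 2586 CPM. The libraries of TID1 and LOC_Os02g18690 overlapped, so their order is not fixed by these data, whereas each of the 3 loci above them lay above TID1 in every library. The tables used here pair no symbol with the 4 loci given by identifier only. LOC_Os03g59380 (2186 ± 36 CPM), LOC_Os02g02890 (1906 ± 26 CPM) and LOC_Os05g30400 (1400 ± 21 CPM) came next (SD, n = 3), again without a symbol.

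The order within the leading 100 was fine-grained. A gene exceeded the next gene down in all 3 libraries in 20 of 100 cases, in 2 libraries in 55 cases and in 1 library in 25 cases. Membership was firmer than order, since 99, 98 and 98 of the leading 100 by the mean were also among the leading 100 of libraries 1, 2 and 3.

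Symbols could be attached to 27 of the leading 100 genes, and 8 of these, along with several families, were looked up because they ranked there, so the list describes the top and does not show that any function is favoured in it. The endoplasmic reticulum was represented by PDIL1-1, a protein disulphide isomerase, with 1158, 1178 and 1183 CPM. Calreticulin (CRT, named CRO1 in the reference), a calcium-binding chaperone, had 1048, 1098 and 1100 CPM. BIP1, the Hsp70 chaperone of the same compartment, had 982, 963 and 985 CPM. These chaperones stood at ranks 15, 22 and 27. MT2C, a metallothionein that binds metal ions, stood at rank 9 with 1345 ± 42 CPM (SD, n = 3). ADC1, arginine decarboxylase of polyamine synthesis, stood at rank 23 with 1068 ± 21 CPM.

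Named genes of the leading 100 below 1000 CPM had varied roles. The dehydrin DHN1 had 928 ± 6.7 CPM, the 14-3-3 protein GF14F had 919 ± 13 CPM and the beta-expansin EXPB4, a wall-loosening protein, had 874 ± 22 CPM. Glycolysis was represented by the glyceraldehyde-3-phosphate dehydrogenases GAPC2 (843 ± 7.6 CPM) and GAPC1 (838 ± 13 CPM) and by the aldolase FBA3 (721 ± 4.6 CPM). The sugar carrier SWEET11, the MADS-box genes MADS8 and MADS7 and the small-RNA effector AGO4A also lay in the leading 100. UAM1, a mutase that supplies arabinose for wall polysaccharides, had 684 ± 4.0 CPM. The ribosomal stalk protein gene 60SP0 had 745 ± 8.3 CPM and the ribosome-associated scaffold RACK1A had 624 ± 1.9 CPM.

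Across all lists, 318 named genes had a row in the count table. Of these, 257 were on, 41 were low and 20 were off, 12 of the last with no count in any library. The share on exceeds the 52.1% of all genes, but the lists were chosen for known roles in grain or plant development. Some were added after the ranks had been seen. The same 52.1% is the share to set beside each count of members on given below. Beside each count of members with a mean of at least 100 CPM, the share of all genes is 6.11%. Every named member was on in 26 of the 47 lists that had one. Among lists with at least 3 named members, those in which most were low or off were storage proteins, alpha-amylases, embryo and aleurone genes, and tapetum and pollen genes.

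**Figure D2:**
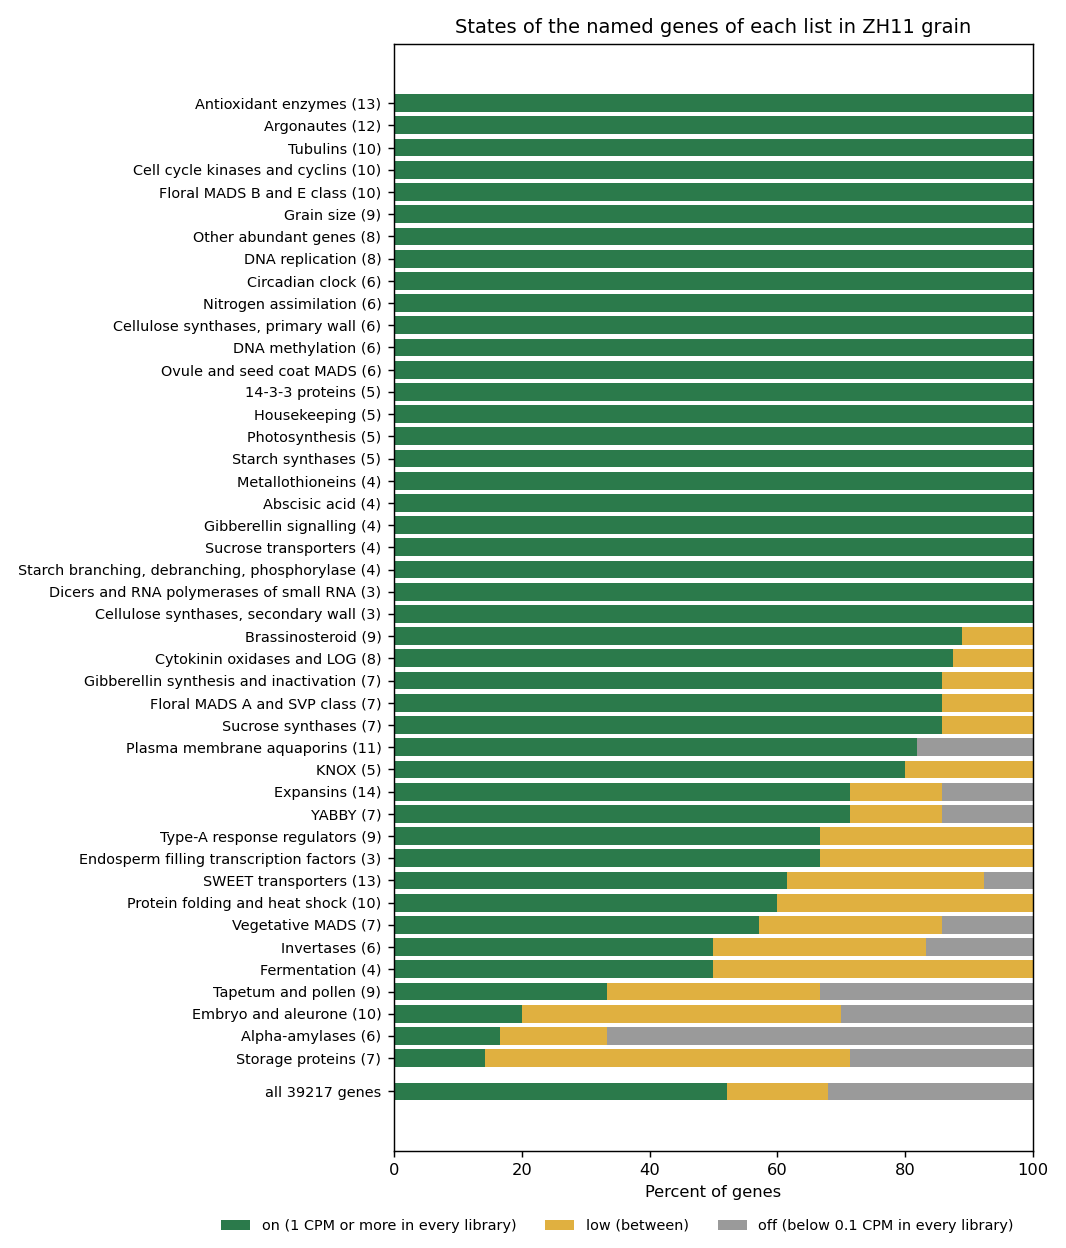
Percent of named genes that were on, low or off in ZH11 grain, for each list with at least 3 named genes (number in brackets), with all 39217 genes in the lowest bar. Storage proteins had 1 of 7 named members on. All 13 named antioxidant enzymes and all 12 named Argonautes were on, but both of these lists were added after the ranks had been seen.

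In the SWEET, invertase and sucrose synthase families, 1 or 2 members took most of the reads of the named genes. SWEET proteins are sugar carriers that let sucrose or hexose leave cells, and SWEET11 is known in rice for export of sucrose toward the endosperm. SWEET11 had 819, 788 and 804 CPM and SWEET4, a hexose carrier known for seed filling in rice, had 152, 147 and 141 CPM. Both were narrow across libraries. SWEET11 drew 76.2% ± 0.30 of the counts of the 13 named SWEET genes, and both together drew 90.1% ± 0.13.

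The other SWEET genes were far less counted. SWEET15, also known from rice seeds, had 32.8, 33.6 and 31.2 CPM. SWEET13 (19.3 ± 2.1 CPM) and SWEET14 (19.1 ± 3.3 CPM) overlapped, as did SWEET1A (15.5 ± 0.67 CPM) and SWEET2A (14.5 ± 2.4 CPM). SWEET3A was on at 1.38 ± 0.098 CPM, and SWEET1B, SWEET2B, SWEET5 and SWEET16 were low. SWEET12 had no count in any library. In total 8 of the 13 were on, and no more of the 16 listed loci, near the 52.1% of all genes on.

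Sucrose-proton symporters of the SUT family load sucrose into cells against a gradient. All 4 named members were on, and their levels lay closer together than those of the SWEET genes. SUT5 had 66.3, 56.8 and 58.9 CPM, SUT4 had 52.3, 52.9 and 56.3 CPM, SUT2 had 42.2, 42.6 and 44.8 CPM, and SUT1 had 24.9, 26.9 and 25.9 CPM. SUT1, which is known for sucrose uptake during rice grain filling, was below the other named members in every library. The remaining listed locus, LOC_Os10g26470, whose symbol was not found in the reference, had no count. SUT5 lay above SUT4 in every library, though their ranges nearly met.

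Cell-wall invertases split sucrose outside the cell into glucose and fructose. CIN2, the invertase known in rice as a determinant of grain filling, had 417, 417 and 399 CPM and drew 95.0% ± 0.085 of the counts of the 6 named members. Among the named members, CIN1 followed with 18.5, 17.3 and 18.1 CPM and CIN4 with 2.26, 2.81 and 2.90 CPM. Of the listed invertase loci that are not named, LOC_Os02g01590 (102 ± 5.5 CPM) and LOC_Os09g08072 (28.5 ± 1.5 CPM) lay above CIN1. All 10 listed loci came to 590, 581 and 558 CPM, so CIN2 took a smaller share of the whole list. CIN3, whose locus number (LOC_Os04g33720) lies next to that of CIN2 (LOC_Os04g33740), was low at 0.630, 0.237 and 0.0813 CPM. CIN5 was low at 0.787, 1.3 and 0.352 CPM, and its neighbour CIN6 had no count.

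Sucrose synthases, which cleave sucrose inside the cell to fructose and UDP-glucose, had 6 of 7 named members on. SUS2 had 584, 584 and 597 CPM, SUS1 had 583, 576 and 590 CPM, and SUS3 had 253, 252 and 246 CPM. SUS1 and SUS2 overlapped and drew 79.2% ± 0.34 of the counts of the 7 named members. SUS4 (39.3 ± 1.0 CPM), SUS6 (14.3 ± 1.3 CPM) and SUS5 (3.52 ± 0.67 CPM) were on. SUS7 was low at 0.0525, 0.0888 and 0.217 CPM.

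All 5 named starch synthases were on, with GBSSI near the limit. The 5 other listed loci, whose symbols were not found in the reference, were on too, and the largest of the 10 listed, LOC_Os07g22930, had 419, 419 and 418 CPM. SSI, which elongates short chains of amylopectin, had 251, 241 and 259 CPM. The 3 starch synthases of class II were SSIIb (48.6 ± 2.5 CPM), SSIIc (34.3 ± 3.0 CPM) and SSIIa (17.0 ± 2.6 CPM), named SSII-2, SSII-1 and SSII-3 in the reference. GBSSI, the Waxy enzyme that makes amylose, had only 1.94, 1.89 and 1.68 CPM. The CPM of SSI and GBSSI did not overlap.

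All 10 listed loci of enzymes that shape the glucan were also on, of which 4 could be named. The largest, LOC_Os04g33460, whose symbol was not found in the reference, had 593, 602 and 616 CPM. The branching enzyme BEI (SBE1 in the reference) had 139, 138 and 135 CPM. The debranching enzyme isoamylase ISA1 had 56.6, 57.8 and 59.0 CPM. The disproportionating enzymes DPE2 and DPE1, which pass glucan units between chains, had 126 ± 3.9 and 101 ± 2.4 CPM. AGPS2, a small subunit of the ADP-glucose pyrophosphorylase that makes the starch precursor, had 123, 133 and 133 CPM. It was the only named member of 6 listed loci, all of which were on. The largest of these, LOC_Os05g50380, whose symbol was not found in the reference, had 733, 739 and 762 CPM.

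**Figure D3:**
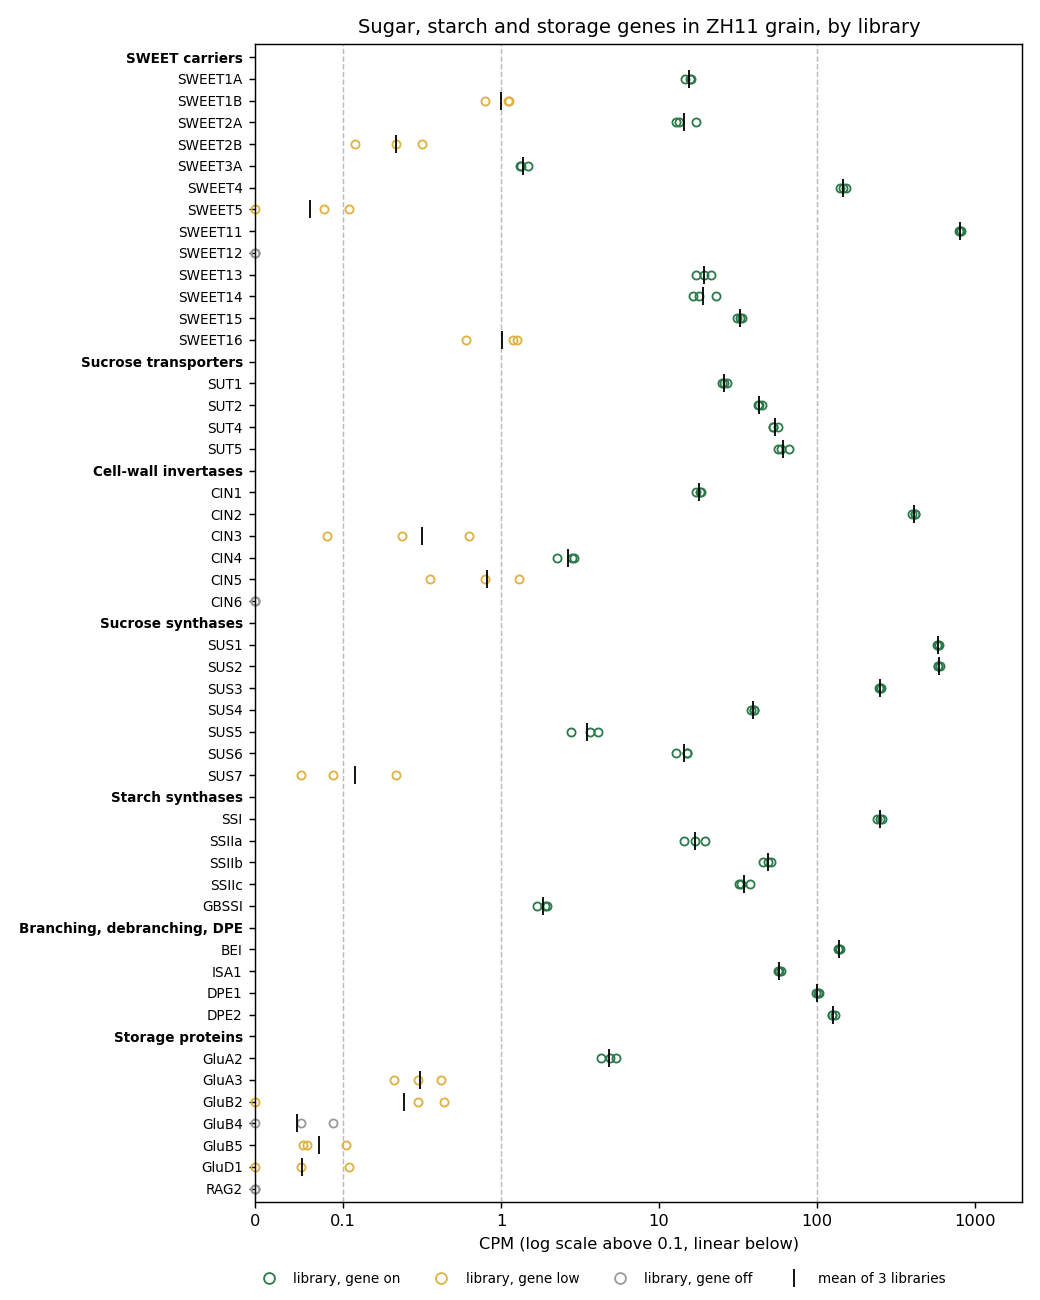
CPM of each named sugar, starch and storage gene in each of the 3 libraries (circles, coloured by state) and their mean (black tick), on an axis that is logarithmic above 0.1 CPM and linear below. SWEET11, CIN2, SUS1 and SUS2 lay between 399 and 819 CPM in every library, and 6 of the 7 storage protein genes lay below 0.5 CPM.

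Most storage protein genes were low or off. Of 7 named members, 1 was on, 4 were low and 2 were off. Of all 12 listed loci 2 were on, the other being LOC_Os03g55730, whose symbol was not found in the reference, with 51.1, 46.5 and 45.4 CPM. Glutelins are the main storage proteins of rice endosperm. GluA2 had 4.30, 4.91 and 5.34 CPM, and the other glutelin genes stayed below 0.5 CPM in every library. GluA3 had 8, 14 and 11 counts, GluB2 had 0, 10 and 16 counts, and GluB4 had 2, 3 and 0 counts. RAG2, a seed allergen of the albumin class, had no count. The named storage genes together came to 4.72, 5.77 and 6.23 CPM, of which GluA2 made up 87.3% ± 3.3. With the loci that are not named, the list came to 56.3, 52.5 and 51.9 CPM, most of it from LOC_Os03g55730.

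Of 9 listed regulators of endosperm filling 5 were on, 1 was low and 3 were off, and 3 of the 9 could be named. RSR1, an AP2-type repressor of starch genes, had 21.4, 21.4 and 20.2 CPM, and the bZIP gene RISBZ5 had 10.1, 10.1 and 12.2 CPM. NF-YB1, a nuclear factor Y subunit known from the rice aleurone, was low at 0.367, 0.533 and 0.596 CPM. Of the 5 listed early endosperm MADS-box loci, 4 were on and 1 was low. Their symbols did not pass the check against the reference, so they are not named. Over these lists, 6 of 7 named storage protein genes stayed below 0.5 CPM in every library, while all 10 named genes of starch synthesis were on.

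Embryo and aleurone genes were mostly low, with a single large exception. Of 10 named members, 2 were on, 5 were low and 3 were off. The exception was DHN1, which had 921, 933 and 932 CPM and made up 98.4% ± 0.20 of the summed CPM of the list. Without it, the largest was LEA3, a late embryogenesis abundant protein, with 11.6, 12.6 and 10.2 CPM. The tandem dehydrin genes RAB16A and RAB16B were low (0.355 ± 0.15 and 0.266 ± 0.076 CPM), and RAB16C and RAB16D had no count. OLE18, an oleosin of seed oil bodies, had 59, 9 and 20 counts, and TIP3-1, an aquaporin of protein storage vacuoles, had 2, 0 and 0 counts. At a limit of 0.5 CPM, 4 of the 12 listed loci were on, against 2 at 1 CPM. VP1, a regulator of seed maturation, averaged 1.02 CPM and was low, since 2 libraries lay below 1 CPM.

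Alpha-amylases, which break starch down in germinating grain, had 1 of 6 named members on, 1 low and 4 off. AMY2A had 5.12, 5.15 and 3.66 CPM, and AMY3D was low at 1.08, 0.829 and 0.705 CPM. AMY1.1, AMY1.2, AMY3B and AMY3E were off, with at most 3 counts in any library. At a limit of 0.5 CPM, 2 members of the list were on in place of 1.

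MADS-box genes of ovule and seed coat were abundant. The C class genes MADS3 and MADS58, which specify stamens and carpels, had 237 ± 4.2 and 281 ± 5.3 CPM (SD, n = 3). The D class genes MADS13 and MADS21, which act in ovules, had 394, 411 and 402 CPM and 257, 257 and 259 CPM. MADS29, a B-sister gene needed for breakdown of maternal tissue in rice grain, had 158, 155 and 156 CPM, while its relative MADS30 had 1.92, 2.22 and 2.74 CPM. MADS13 lay above all the others in every library, and all 6 were on.

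Among E class genes, which act as partners of the other floral classes, MADS8 had 863, 851 and 888 CPM and MADS7 had 696, 705 and 699 CPM. They drew 78.8% ± 0.35 of the counts of the 10 named B class, E class and AGL6-like genes. The AGL6-like genes MADS6 and MADS17 had 129 ± 6.4 and 39.7 ± 2.7 CPM. The other E class genes were MADS1 (75.9 ± 1.8 CPM), MADS5 (41.5 ± 2.2 CPM) and MADS34 (3.90 ± 0.27 CPM).

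Of the B class genes, which specify lodicules and stamens, MADS4 had 88.7 ± 3.3 CPM, and its closest relative MADS2 had 21.8 ± 1.3 CPM. MADS16, the remaining named B class gene, had 21.9 ± 2.7 CPM and overlapped MADS2. All 10 named genes of this group were on.

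A class and SVP-like genes, which act earlier in flower and inflorescence development, were counted less. MADS18 had 68.9, 67.0 and 62.0 CPM and MADS14 had 31.0, 29.5 and 32.9 CPM, whereas MADS15 had 4.22, 2.49 and 2.71 CPM. MADS20 was low with 5, 2 and 4 counts. The SVP-like genes MADS22, MADS55 and MADS47 had 12.8 ± 1.5, 6.39 ± 0.42 and 3.19 ± 0.11 CPM. Of the 7 remaining named MADS-box genes, 4 were on, of which MADS56 had the largest value (30.7 ± 1.3 CPM), and MADS25 had no count. Of all 9 listed loci of this group, 6 were on at 1 CPM and 3 at 2 CPM.

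YABBY genes, which pattern lateral organs, split into a counted and a silent group. YAB1 had 519, 551 and 535 CPM, YAB2 had 110, 110 and 116 CPM, YAB6 had 92.2, 94.8 and 96.4 CPM and DL, which specifies carpels in rice, had 87.2, 90.1 and 90.2 CPM. YAB3 had 3.64 ± 0.41 CPM. YAB5 was low with 8, 3 and 2 counts, and YAB4 had no count. YAB1 alone drew 64.1% ± 0.73 of the family's counts.

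KNOX genes, which keep cells in a meristem state, were on in 4 of 5 cases but modest. OSH71 had 23.5, 21.0 and 22.2 CPM and OSH1 had 12.5, 14.7 and 12.8 CPM. OSH15 (6.41 ± 0.92 CPM) and OSH6 (1.95 ± 0.52 CPM) were on, and OSH43 was low.

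Named anther genes ran from no count to a few CPM. Of 9 named tapetum and pollen genes, 3 were on, 3 were low and 3 were off, and together they summed to 10.1, 11 and 12.3 CPM. UDT1, an early tapetum regulator, had 4.93, 5.21 and 6.59 CPM, CYP703A3, which acts in the pollen wall, had 2.62, 1.81 and 2.82 CPM, and CP1, a cysteine protease, had 1.34, 2.34 and 1.6 CPM. The tapetum genes C6 and RTS had no count, and EAT1 had 1 count in 3 libraries. At a limit of 2 CPM, 2 of the 11 listed loci were on, against 4 at 1 CPM. Among the markers, the ovule and seed coat MADS genes were on, while the anther, embryo and storage protein genes were mostly low or off. DHN1 was a large exception in the embryo list. In 2 marker lists without a named member, 4 of 5 early endosperm MADS-box loci were on. Of 3 pollen MADS-box loci, 2 were low and 1 was off. The B class genes, which specify lodicules and stamens, and the 5 named genes of green tissue were on as well. Named starch synthesis genes were on too, though GBSSI had a mean of only 1.84 CPM. Which tissue of the grain their reads came from was not tested. Over all genes, 52.1% were on and 32% were off.

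**Figure D4:**
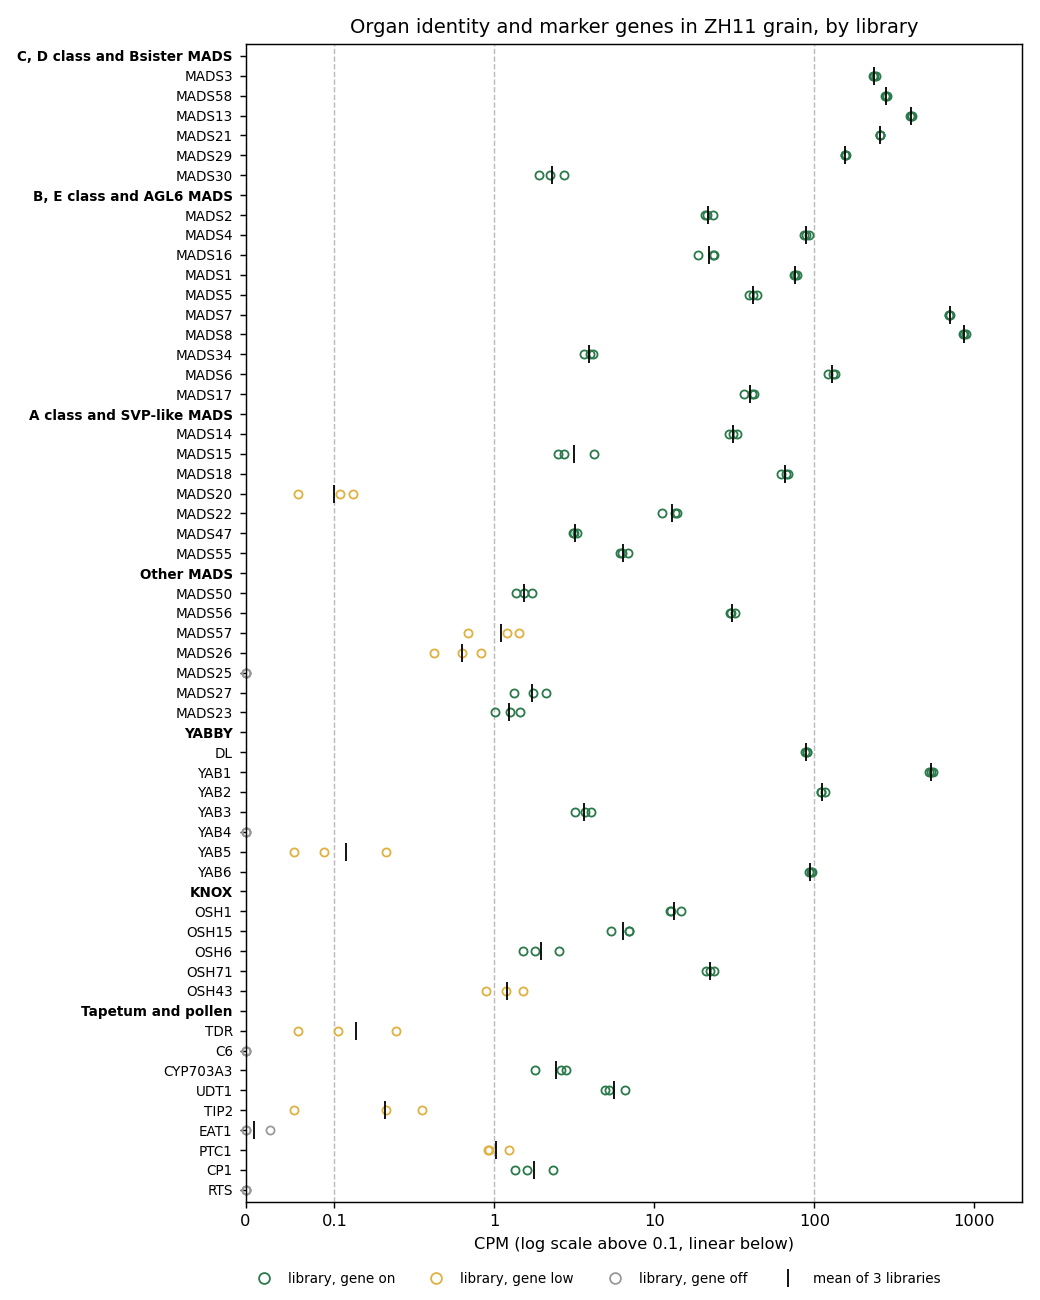
CPM of named organ identity and anther genes in each library (circles, coloured by state) and their mean (black tick), on an axis that is logarithmic above 0.1 CPM and linear below. MADS7, MADS8 and YAB1 lay above 500 CPM in every library, while C6, RTS, YAB4 and MADS25 had no count.

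Cell division genes were on without exception among those named. DNA replication was represented by 8 genes. PCNA, the sliding clamp of DNA polymerase, had 126, 131 and 124 CPM, and the helicase subunits MCM2 to MCM7 lay between 39.0 and 86.0 CPM on average. RPA1A, which binds single-stranded DNA, had the smallest value, 28.4 ± 1.8 CPM. The 10 named kinases, cyclins and inhibitors had a median of 68.4 CPM, against 20.8 CPM over all genes that were on.

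Mitotic genes led the cell cycle list. The B-type cyclin CYCB1-1 had 162, 159 and 163 CPM and the mitotic kinase CDKB2-1 had 137, 140 and 140 CPM, and these groups did not overlap. CYCB1-5 (104 ± 3.8 CPM) and the inhibitor KRP1 (95.3 ± 2.3 CPM) followed. The general kinases CDKA-1 and CDKA-2 had 39.5 ± 0.75 and 19.9 ± 0.87 CPM, and KRP3 had 8.53 ± 1.3 CPM.

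Tubulins were listed after the rank of TID1 had been seen. The 10 named alpha- and beta-tubulin genes were all on, 8 of them with a mean of at least 100 CPM. They summed to 5601, 5523 and 5515 CPM, of which TID1 gave 48.5% ± 0.34. The list also held LOC_Os03g51600, whose symbol was not found in the reference, with 1103, 1157 and 1168 CPM. With that locus the list came to 6705, 6680 and 6684 CPM. TUBA1, the other named alpha-tubulin, had 652, 642 and 658 CPM. The beta-tubulins ran from TUBB3 (441 ± 15 CPM) to TUBB8 (90.2 ± 0.90 CPM). ACT1, an actin, had 595 ± 6.6 CPM.

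Cell wall genes divided by the wall they build. All 6 named cellulose synthases of the primary wall, the wall of growing cells, had a mean of at least 100 CPM. CESA6 had 580, 581 and 597 CPM, CESA1 had 499, 490 and 499 CPM and the smallest, CESA3, had 139, 150 and 148 CPM. The 3 named cellulose synthases of the secondary wall, which thickens cells after growth, were on but small. CESA4 had 15.3, 15.7 and 12.7 CPM, CESA7 had 5.61, 3.79 and 5.31 CPM and CESA9 had 2.76, 2.60 and 3.23 CPM. The sums were 1873, 1873 and 1924 CPM for primary wall genes and 23.7, 22.1 and 21.2 CPM for secondary wall genes, with no overlap of any member.

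Expansins, which loosen growing walls, had 10 of 14 named members on, in a list added after the ranks had been seen. Beta-expansin genes lie side by side on chromosome 10 and differed widely. EXPB4 had 896, 875 and 851 CPM, EXPB3 had 194, 191 and 187 CPM, EXPB6 had 19.3, 20.8 and 20.3 CPM, and EXPB2 had 6, 0 and 0 counts. The position check cannot tell such neighbours from each other, and reads shared by close copies may have been split between them. Of the alpha-expansins, EXPA7 (291 ± 9.0 CPM) and EXPA5 (173 ± 5.9 CPM) had the largest values, and EXPA3 and EXPA9 were off.

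Aquaporins of the plasma membrane move water, and 9 of 11 named members were on. PIP1-1 had 675, 667 and 661 CPM and PIP2-1 had 568, 559 and 558 CPM, and both together drew 66.7% ± 0.75 of the family's counts. PIP1-2 (295 ± 14 CPM) and PIP2-6 (217 ± 8.4 CPM) were also above 100 CPM. The loci next to PIP2-1 by number, PIP2-5 and PIP2-4, had 8.21 ± 0.66 and 2.26 ± 0.20 CPM. PIP2-3 and PIP2-8 had no count.

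Of 7 named genes of gibberellin synthesis and inactivation 6 were on, as were all 4 named genes of the response. Of all 18 listed loci of synthesis and inactivation, 12 were on, 4 were low and 2 were off. In synthesis, the early enzymes KS1 and KO2 had 54.1 ± 1.1 and 38.9 ± 3.3 CPM, while CPS1, the enzyme before them, had 2.49 ± 0.24 CPM and KAO was low at 1.21, 0.621 and 0.922 CPM. GA20ox2, the enzyme altered in semi-dwarf rice, had 42.4, 38.7 and 34.4 CPM and GA20ox3 had 3.70 ± 0.30 CPM. EUI1, which inactivates gibberellin, had 17.8 ± 0.97 CPM. In the response, the DELLA repressor SLR1 had 325, 300 and 294 CPM, the negative regulator SPY had 221 ± 4.3 CPM, the receptor GID1 had 97.0 ± 3.5 CPM and GAMYB, a transcription factor, had 46.6 ± 1.7 CPM.

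Cytokinin oxidases remove cytokinin, and most of those named were on. Of all 11 listed oxidase and LOG loci, 7 were on and 4 were low. CKX11 had 124, 119 and 127 CPM, and took 62.8% ± 1.2 of the counts of the 8 named cytokinin oxidase and LOG genes. CKX2, known in rice for its effect on grain number, had 32.4, 30.5 and 31.1 CPM. CKX5 (14.4 ± 0.77 CPM) and CKX9 (11.9 ± 2.2 CPM) followed, and CKX4 was low. LOG, which activates cytokinin, had 5.72, 7.46 and 7.37 CPM. Of the 9 named type-A response regulators, which damp cytokinin signalling, 6 were on, with RR6 (53.7 ± 4.7 CPM) and RR2 (34.8 ± 2.0 CPM) the largest. Of all 11 listed regulators, 7 were on and 4 were low.

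Of 9 named brassinosteroid genes, 8 were on. The receptor BRI1 had 248, 241 and 252 CPM, its partner BAK1 had 158, 168 and 169 CPM and the transcription factor BZR1 had 207, 188 and 192 CPM. The kinase GSK2, an inhibitor of the pathway, had 22.0 ± 0.37 CPM. Of the synthesis genes, BRD1 (DWARF in the reference) had 64.6 ± 1.6 CPM, D2 had 13.6 ± 1.2 CPM, D11 had 9.80 ± 1.6 CPM and DWARF4 was low at 1.55, 0.799 and 1.33 CPM.

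All 4 named abscisic acid genes were on, while of all 8 listed loci 5 were on and 3 were low. ABA8OX1 and ABA8OX3, hydroxylases that inactivate the hormone, had 107, 105 and 104 CPM and 43.8, 44.2 and 41.5 CPM. ABA8OX2 had 7.32 ± 0.72 CPM. NCED3, which catalyses a committed step of synthesis, had 12.1, 8.94 and 12.2 CPM. The auxin synthesis gene YUCCA1 was low, with 31, 6 and 30 counts.

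All 9 named grain size genes were on, while of all 15 listed loci 14 were on and 1 was off. RGB1 and RGA1, the beta and alpha subunits of the heterotrimeric G protein, had 106 ± 0.38 and 50.3 ± 2.1 CPM. The kinase MPK6 (MAPK6 in the reference) had 62.2 ± 1.4 CPM. The growth regulators SPL13, GRF4 and GW8 (SPL16 in the reference) had 27.6 ± 3.1, 23.7 ± 0.32 and 11 ± 1.5 CPM, and the ubiquitin ligase GW2, a repressor of grain width, had 26.3 ± 2.1 CPM. BG1 had 17.3 ± 1.0 CPM and SPL14 had 7.25 ± 1.7 CPM.

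Many small-RNA effectors were abundant, in a list added after the ranks had been seen. All 12 named Argonautes, the proteins that small RNAs guide to their targets, were on, and 8 had a mean of at least 100 CPM. Of all 15 listed loci, 14 were on and 1 was off. AGO4A, of the clade that directs DNA methylation, had 853, 861 and 855 CPM and its relative AGO4B had 224, 223 and 227 CPM. Of the clade that acts with microRNAs, AGO1B had 560, 554 and 554 CPM, AGO1A had 281 ± 5.3 CPM, AGO1C had 153 ± 3.9 CPM and AGO1D had 123 ± 3.7 CPM. AGO14 (234 ± 6.4 CPM) and the locus matched to PNH1 in the reference, LOC_Os06g39640 (160 ± 2.4 CPM), were also abundant. AGO7, AGO17 and the germline Argonaute MEL1 had 2.93 ± 0.69, 3.41 ± 0.26 and 3.35 ± 0.75 CPM and overlapped.

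The 3 named enzymes that make small RNA, also listed after the ranks had been seen, were on. The Dicer DCL4 had 97.9 ± 3.1 CPM, and the RNA-dependent RNA polymerases RDR2 and RDR6 (SHL2 in the reference) had 68.7 ± 3.1 and 35.5 ± 1.0 CPM. Loci of several other Dicers had no row of their own in the table and are not analysed here.

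All 6 named DNA methylation genes were on, as were 9 of the 10 listed loci. MET1B, a maintenance methyltransferase, had 56.4, 54.8 and 55.6 CPM, and MET1A had 6.66, 7.58 and 6.26 CPM. CMT3A, a chromomethylase, had 102, 102 and 96.0 CPM, and CMT3B (CMT1 in the reference) had 5.72, 6.45 and 5.45 CPM. The de novo enzyme DRM2 had 53.7 ± 2.2 CPM and the demethylase ROS1C had 27.9 ± 3.4 CPM. EZ1, a histone methyltransferase of the Polycomb complex, had 44.0 ± 1.3 CPM.

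Within the chaperones, BIP1 stood against near-silent relatives. BIP2, BIP3 and BIP4 had 0.212 ± 0.057, 0.20 ± 0.077 and 0.172 ± 0.092 CPM and overlapped. HSP81-1, an Hsp90, had 243 ± 8.8 CPM, HSP101, which resolves aggregates in heat, had 12.7 ± 0.92 CPM, and the heat shock factor HSFA2A had 0, 2 and 10 counts. PDIL2-3 had 113 ± 2.2 CPM. The locus numbers of BIP1 and the catalase CATA are neighbours, and both were abundant, with CATA at 670, 623 and 626 CPM.

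Metallothioneins and 14-3-3 proteins, which bind phosphorylated partners, were on in every named case. Both lists were added after the ranks had been seen. After MT2C, the metallothioneins MT2B and MT2A had 134 ± 5.5 and 116 ± 2.7 CPM and MT1A had 17.1 ± 1.7 CPM. After GF14F, the 14-3-3 genes GF14C and GF14D had 456 ± 14 and 412 ± 3.2 CPM, GF14B had 244 ± 4.9 CPM and GF14G had 24.0 ± 2.0 CPM. SAMDC and SAM1, which supply the precursors of polyamines and of methyl groups, had 645 ± 9.4 and 616 ± 7.9 CPM, and Aconitase, of the citrate cycle, had 626 ± 11 CPM.

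All 13 named enzymes that remove reactive oxygen were on, in a list added after the ranks had been seen. The ascorbate peroxidases APX1 and APX2 of the cytosol had 642 ± 12 and 426 ± 6.5 CPM, APX4 had 155 ± 3.1 CPM and APX3 had 4.02 ± 0.56 CPM. The catalase CATB had 253 ± 6.1 CPM. The superoxide dismutases SODCC1, SODA and SODCC2 had 188 ± 6.7, 170 ± 1.4 and 109 ± 3.1 CPM.

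Ethanol fermentation, which regenerates NAD without oxygen, was represented by 4 named genes, of which 2 were on. The list was added after the ranks had been seen. PDC2, a pyruvate decarboxylase, had 634, 611 and 604 CPM, while PDC3 had 0.499, 0.917 and 0.922 CPM and PDC1 had 0.236, 0.0888 and 0.271 CPM. ADH1, an alcohol dehydrogenase, had 430, 418 and 424 CPM, and it was the only listed gene of that step with a row in the table. Neither PDC1 nor PDC3 came near PDC2 in any library.

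Nitrogen assimilation genes were on. The cytosolic glutamine synthetase GLN1-1 had 368, 380 and 374 CPM, and its relatives GLN1-2 and GLN1-3 had 52.2 ± 2.5 and 12.4 ± 1.3 CPM. The plastid enzyme GLN2 had 77.2 ± 2.2 CPM. The ferredoxin-dependent glutamate synthase GLU1 (GLU in the reference) had 112 ± 0.74 CPM and GLT2 had 6.89 ± 0.46 CPM.

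Genes of green tissue were on, all 5 of those named. The light-harvesting gene CAB2R had 166, 163 and 164 CPM, Rubisco activase RCA had 102, 100 and 102 CPM and the Rubisco small subunit gene RBCS2 (RBCS in the reference) had 30.0, 33.3 and 29.8 CPM. PORA and PORB, which catalyse a light-dependent step of chlorophyll synthesis, had 98.4 ± 2.5 and 74.2 ± 4.4 CPM. Of the clock genes, GI had 306 ± 5.7 CPM, and PRR1, PRR73, PRR37, PRR95 and LHY ran down to 13.6 ± 0.89 CPM at LHY. The sources do not give the hour of collection.

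Activity differed between chromosomes, as read from the chromosome number in the locus identifier. The share of genes on was highest on chromosome 3 (62.6% of 4396) and lowest on chromosome 11 (40% of 2706), where more genes were off (42.5%) than on. Chromosomes 2 and 1 followed chromosome 3, with 59.9% and 57.9% on, and chromosomes 10 and 12 lay near the low end with 43.6% and 44.9%. Genes with a mean of at least 100 CPM made up 8.74% of chromosome 3 and 3.44% of chromosome 11. Chromosome 3, with 4396 of the 38916 loci, supplied 19 of the leading 100 genes and 16.3% of all counts. Chromosome 11, with 2706 loci, supplied 7 and 4.60%, so its number in the leading 100 was near its share of loci. Chromosome 10, with 2330 loci, supplied the fewest of the leading 100, at 2, and 4.28% of counts.

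**Figure D5:**
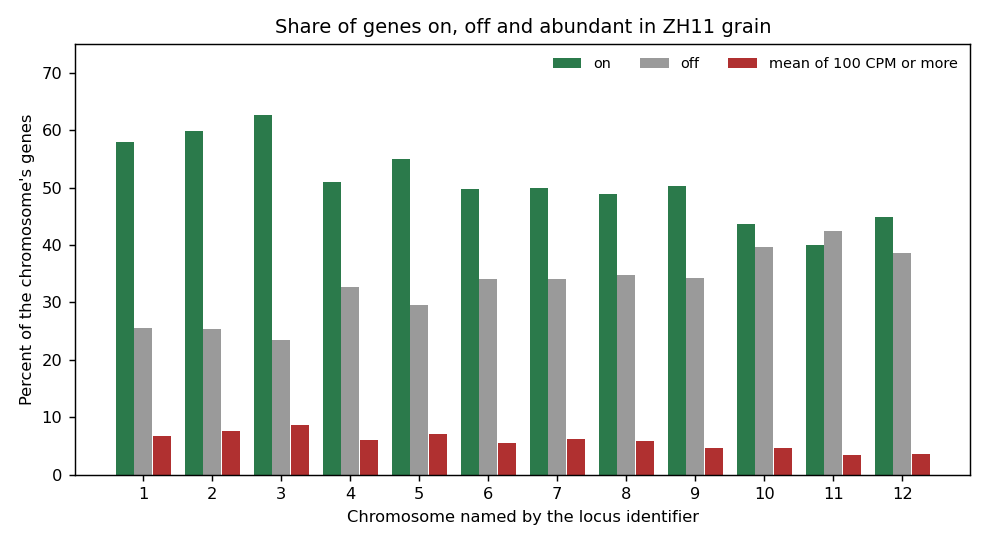
Percent of the genes of each chromosome that were on, off, or at a mean of 100 CPM or more in ZH11 grain. The share on ran from 40% on chromosome 11 to 62.6% on chromosome 3, and the share off ran the other way, from 42.5% to 23.4%.

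Neighbours by locus number resembled each other. Of genes whose predecessor was on, 62.9% of 20416 were on, against 41.0% of 18488 genes whose predecessor was not on. The longest run of consecutive loci that were all off held 24 genes on chromosome 8, from LOC_Os08g26310 to LOC_Os08g26685, of which 21 had no count. The next run held 19 genes on chromosome 6, and 1 run on chromosome 9 and 2 on chromosome 10 held 18 genes each. The count table also names 301 genes by identifiers of another form, of which only 12 were on (3.99%), against 52.5% of the 38916 loci.

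Few genes varied between the libraries. At a mean of at least 20 CPM, 4 genes had a CV above 20%. LOC_Os11g01154 had 10.9, 14.6 and 38.4 CPM, so library 3 stood above the other two, with a CV of 70.0%. EVM0012725 had 44.4, 18.3 and 37.4 CPM, and Add_EVM0009533 had 404, 175 and 349 CPM. EVM0009797 had 30.4, 13.9 and 23.2 CPM. In the last 3 genes library 2 was lowest, and each CV lay between 36.7% and 40.4%. LOC_Os02g43130 came next, with 76.8, 56.5 and 57.4 CPM and a CV of 18.1%.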

How the data were processed

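Grain RNA was made into libraries from 1 µg of total RNA with a NEBNext Ultra II kit and sequenced on an Illumina instrument, per the labels' protocols. The authors deposited whole-number read counts per gene, and these raw counts were used as they stand. Per the submitters' processing notes, the tools were BWA, HISAT2, featureCounts and DESeq, with neither version nor role stated. The sources give no genome build, annotation or strand setting, so a gene's reads cannot be separated from those of an antisense partner or a near-identical copy. Even values made up 65.1% to 67.6% of the counts from 1 to 20 and 49.7% to 50.0% of those above 100. Mates of a pair may have been counted separately, which would leave fewer independent fragments than counts.

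CPM were computed from library totals with Python 3.11.15, pandas 2.3.3 and numpy 2.4.6. TMM factors (edgeR 4.0.16) and size factors (DESeq2 1.42.0) in R 4.3.3 served as alternative scalings. No test was run, since the part has 1 group. Calling on and off was run on simulated counts with counting error only, for genes set well away from both limits. It therefore does not bear on calls near a limit.

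The reference table has none of the 39217 identifiers (0 matched directly). Of 454 locus and symbol pairs from general knowledge in 49 lists, 324 had a symbol in the reference on the stated chromosome within 1 Mb of the place given by neighbouring pairs, and only these are named. Symbols were absent for 117 pairs, and 13 were contradicted or ambiguous. Of the 324, 318 had a row in the table. The check cannot separate adjacent loci. Values are in library order 1, 2, 3, and ± is the SD of 3 libraries. The naming rule took up to 20 genes of highest mean CPM, all checked members and up to 5 genes of largest CV. Members and lists were chosen with earlier results of these data known. The lists of tubulins, expansins, metallothioneins, fermentation, 14-3-3 proteins, Argonautes, small-RNA enzymes, antioxidant enzymes and other abundant genes, and BIP2 to BIP4, were added after ranks had been seen. Transcript lengths and gene sequences were not used here.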

Additional observations from a re-analysis of the deposited data

How the results depend on the processing

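No alternative moved the number of genes on, off or abundant, the share of the leading 100, the members on or the leading 100 genes by more than 1.5 times or the spread between libraries. Genes on numbered 21671 at a limit of 0.5 CPM and 18870 at 2 CPM, and genes off 14061 below 0.2 CPM and 10826 with no count. TMM factors over all 9 grain libraries gave 19922 on, 13282 off and 1705 abundant genes, the last against 2397. TMM and size factors over the 3 ZH11 libraries gave 20436 on and 2397 abundant genes. With a library left out, 20624 to 20642 genes were on, 13015 to 13076 off and 2395 to 2400 abundant, the leading 100 took 10.1% to 10.2% of counts, and 98 to 100 of them were shared. Over all lists, 337 of 435 loci were on, 352 at 0.5 CPM, 321 at 2 CPM and 257 of the 318 named. Of 98 counts for single lists 4 moved by more than 1.5 times: embryo and aleurone had 4 loci on at 0.5 CPM against 2, alpha-amylases 2 against 1, and at 2 CPM the other MADS-box genes had 3 against 6 and tapetum and pollen 2 against 4. A ranking per kilobase was not run, as no transcript lengths were at hand. No paired analysis was possible because the results come from 1 group and no test. A level of 1 CPM rested on 38.1, 33.8 and 36.9 counts in libraries 1, 2 and 3, so calls near 0.1 CPM rest on very few reads.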
